A study of Mus musculus with 117 samples.

Results

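The chromatin of 10 imprinted genes was followed in liver hepatocytes of 9 inbred mouse strains. The genes were Igf2, H19, Kcnq1ot1, Snrpn, Peg3, Dlk1, Meg3, Igf2r, Grb10 and Plagl1, taken from a list of well-known imprinted genes. No cut on a measured value was used, but earlier results of these data were known when the genes were chosen. They are 10 of the 47042 genes that RefSeq places on the mouse autosomes in build GRCm38. Each gene was measured over its span with 3 kb added to both sides, cut into bins of 200 bp, which gave 4675 bins for the 10 genes, from 44 for H19 to 2369 for Snrpn.

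The strains were the classical inbred C57BL/6J, DBA/2J, A/J, 129S1/SvImJ, NZO/HlLtJ and NOD/ShiLtJ and the wild-derived WSB/EiJ, PWK/PhJ and CAST/EiJ. All mice were females of 12 weeks, no treatment is named, and every strain had 13 ChIP-seq libraries: 1 of input, and 3 (1 per mouse) for each of the histone marks H3K27me3, H3K27ac, H3K4me3 and H3K4me1. The authors deposited 1 segmentation per strain, in which every bin carries the number of 1 of 14 chromatin states, so a strain is 1 value, SDs are between strains (n = 9) and the spread between mice of a strain is not known. The depth behind the segmentations is also unknown. Inbred mice carry the same sequence on both parental chromosomes, and the states hold no allele information: marks on different alleles of a cell and marks in different cells cannot be told apart.

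An imprinted gene is expressed from the chromosome of 1 parent and silenced on the other, as set by DNA methylation laid down in the egg or the sperm. The controlling element can then carry active marks on 1 allele and repressive marks on the other. Imprinted genes lie in clusters, often with a long non-coding RNA that silences its neighbours. Several of them, among them Igf2, H19, Dlk1 and Plagl1, promote or restrain fetal growth, and their expression in the liver falls after birth.

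No file gives the marks of each state, so states were grouped by where they lay outside the 10 genes. States 1 to 4 are called active because each covered at least 10% of the bins within 1 kb of the ends of 20 hepatocyte genes. State 13 is the repressive reference. It covered 64.8% ± 4.13 of the bins at the ends of 20 developmental regulators that the adult liver keeps silent, and 11.1% ± 1.36 of all autosomal bins. States 5, 7, 10, 11 and 12 are called mixed because they covered a larger share of the X chromosome than of the autosomes in all 9 strains. State 13 did so too, with 85.8% ± 4.49 of the X, and was set apart by its share at the developmental regulators, so this rule alone does not separate mixed from repressive states. In females 1 X chromosome of each cell is silenced and the other is not. Mixed states are rare, with 0.334% ± 0.0458 of autosomal bins. At the ends of the 20 developmental regulators, however, mixed states covered 22.7% ± 2.57 of the bins. State 10 made up the largest part of this share and state 12 the next. A mixed state is thus also found at silent developmental genes and does not by itself mark an imprinted gene. Whether mixed states reflect unlike alleles was not tested. State 14, the most frequent state of the autosomes, covered 76.6% ± 1.47. For that frequency alone it is called unmarked and all other states marked. States 6, 8 and 9 belonged to none of these classes. The ends of the hepatocyte genes were 93.9% ± 1.96 active. The ends of 8 genes each for endothelial, Kupffer, stellate and bile duct cells were 15.8%, 12.0%, 4.42% and 17% active, and the part of such cells in the states of the imprinted genes was not tested.

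The 10 genes fell into sets with different chromatin. Igf2, H19, Dlk1 and Plagl1 had no active bin in any strain and held state 13 in every strain. State 13 had the largest mean share in Igf2, H19 and Dlk1, while Plagl1 was mostly state 14 (77.4% ± 9.08) with 18.9% ± 8.64 in state 13. Snrpn also held state 13, over 26.4% ± 7.68 of its window. Kcnq1ot1 and Igf2r had active states and neither state 13 nor a mixed state in any strain. Snrpn and Peg3 had a short active stretch near the start, Grb10 held both kinds in different parts of the gene, and Meg3 was almost free of marked states.

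**Figure D1:**
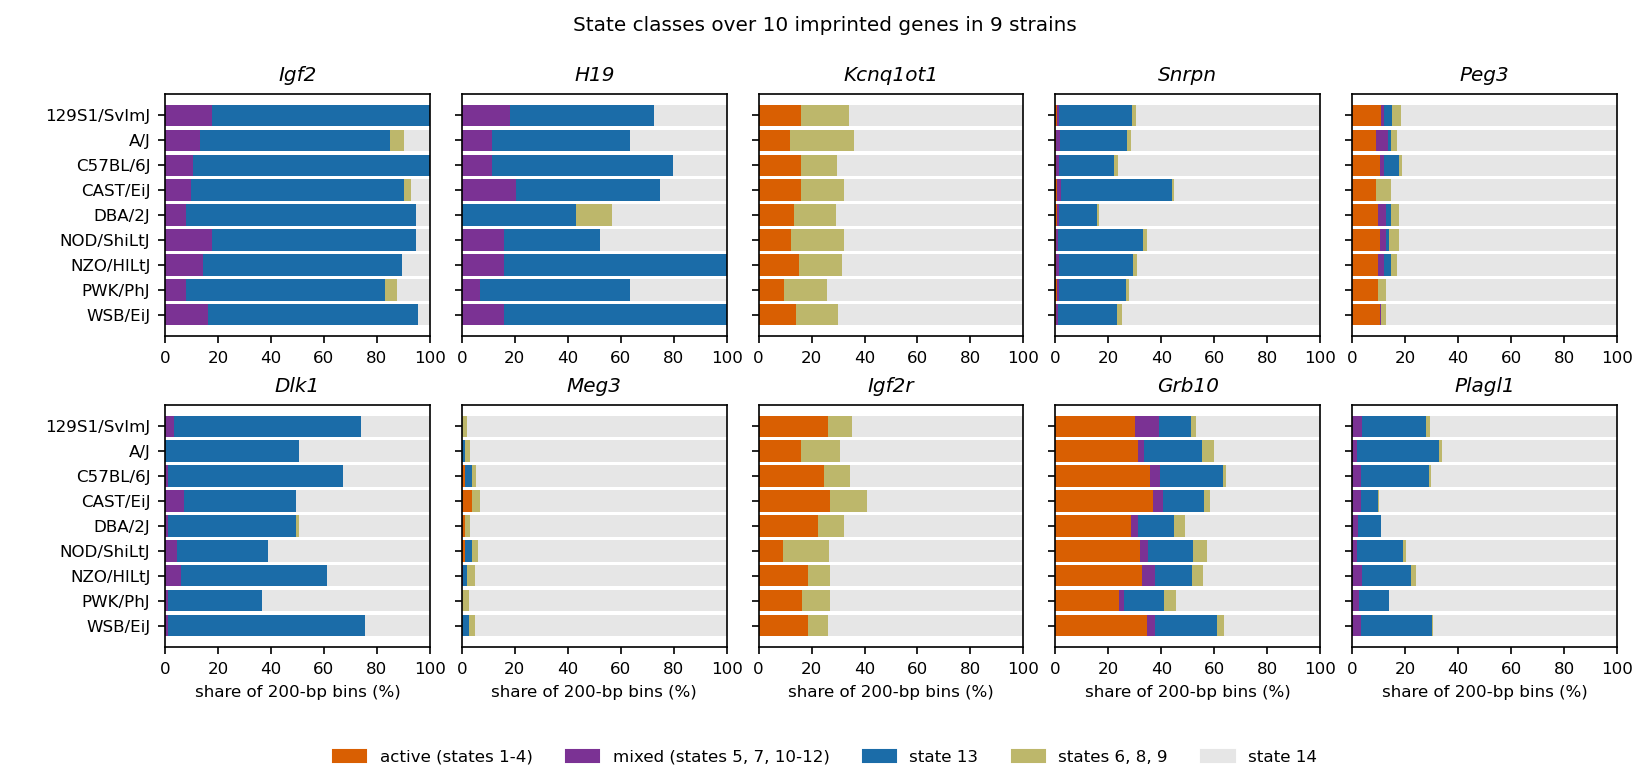
Share of 200-bp bins in each state class (x axis, percent) over the 10 genes with 3 kb on both sides, 1 bar per strain. Igf2 is mostly state 13 with mixed states, H19 holds state 13 with up to 47.7% unmarked bins, Kcnq1ot1 and Igf2r hold active states without either, and Grb10 holds all of them.

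For each gene the share of bins in a class was set against the same strain's autosomal share with an exact sign-flip permutation test, two-sided and with each strain as 1 value, and p-values were adjusted by the Benjamini-Hochberg method over all autosomal genes that have the class in any strain. The smallest p this allows is 0.0039 before adjustment. In mixed states 6 of the 10 members were called higher (Igf2, H19, Snrpn, Dlk1, Grb10 and Plagl1), 1 was called lower (Meg3) and Peg3 was not called. Igf2r and Kcnq1ot1 had no mixed bin and were not tested. Meg3 entered the test through 1 mixed bin in NZO/HlLtJ alone, so its lower call depends on that bin. Among all genes, 36.3% of the 11221 tested and 8.65% of all 47042 were called higher. In state 13 the same 6 members were called higher and Peg3 and Meg3 lower, against 33.3% of tested genes and 17.1% of all genes called higher. In active states 4 of 10 were called higher (Grb10, Igf2r, Kcnq1ot1 and Peg3) and Snrpn and Meg3 lower. Among all genes, 55.8% of those tested and 32% of all were called higher. Igf2r and Kcnq1ot1 were not tested in state 13, nor Igf2, H19, Dlk1 and Plagl1 in active states, for lack of such bins. Members tested thus numbered 8 in mixed states, 8 in state 13 and 6 in active states. Shares of tested genes are to be read beside these numbers and not beside 10. The median of the members' mean shares was 2.32% in mixed states and 18.2% in state 13, where the median over all genes was 0% and 0.138%. For active states it was 0.608% against 1.39%. Window length was not matched in these comparisons with all genes. The median window over all genes held 62 bins, and those of the members ran from 44 to 2369 bins. The effect of window length was not tested.

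The start sites of transcripts showed which chromatin each gene had where transcription begins. RefSeq's table gives 17 start sites for 9 of the members and none for H19. The bin at the start was active in all 9 strains at 2 of the 17, those of Kcnq1ot1 and Igf2r, against 36.1% of 31360 start sites on the autosomes. It was mixed in all strains at 1 of 17, that of Plagl1, against 1.82%, and mixed in at least 1 strain at 4 of 17, against 9.98%. It was in state 13 in all strains at 4 of 17, being 2 starts of Igf2, the start of Dlk1 and the inner start of Grb10, against 3.63%. It was in state 14 in all strains at 2 of 17, against 21.4%.

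The 250 bases before the starts that the results turn on are printed here 5′ to 3′ on the strand of the gene, from RefSeq with build GRCm38.p6, to show how widely these starts differed in their number of CG pairs, the letters that DNA methylation acts on, also among the active ones. Each CG is in capitals. Kcnq1ot1, Snrpn and Igf2r had active states at the start. Airn, a non-coding RNA that starts inside Igf2r and runs against it, was in state 8 or 1. Plagl1 was mixed in every strain, and the upstream start of Grb10 varied between strains. For Grb10 the run stops at the outer end of the gene in the table and is 242 bases long.
Kcnq1ot1, chr7:143296548-143296797, minus strand: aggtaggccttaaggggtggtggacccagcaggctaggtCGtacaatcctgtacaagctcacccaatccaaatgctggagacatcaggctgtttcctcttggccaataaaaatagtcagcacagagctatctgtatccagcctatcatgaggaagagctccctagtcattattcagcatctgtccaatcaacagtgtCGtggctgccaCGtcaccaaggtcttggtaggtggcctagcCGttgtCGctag
Snrpn, chr7:60005200-60005449, minus strand: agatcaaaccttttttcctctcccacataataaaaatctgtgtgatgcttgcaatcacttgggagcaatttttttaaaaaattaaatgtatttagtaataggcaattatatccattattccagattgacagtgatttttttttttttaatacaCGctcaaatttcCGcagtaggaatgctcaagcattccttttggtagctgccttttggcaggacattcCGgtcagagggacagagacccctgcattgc
Igf2r, chr17:12769707-12769956, minus strand: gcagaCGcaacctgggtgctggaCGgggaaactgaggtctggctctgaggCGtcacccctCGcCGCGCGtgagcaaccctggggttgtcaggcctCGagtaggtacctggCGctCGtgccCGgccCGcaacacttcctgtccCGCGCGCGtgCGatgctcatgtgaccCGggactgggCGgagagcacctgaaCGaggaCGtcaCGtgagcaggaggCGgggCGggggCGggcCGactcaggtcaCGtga
Airn, chr17:12741061-12741310, plus strand: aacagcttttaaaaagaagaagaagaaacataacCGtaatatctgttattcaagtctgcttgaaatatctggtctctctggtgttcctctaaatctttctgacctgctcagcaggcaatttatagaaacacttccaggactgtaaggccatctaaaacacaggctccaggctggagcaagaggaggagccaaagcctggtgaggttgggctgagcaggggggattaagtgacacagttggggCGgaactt
Plagl1, chr10:13090582-13090831, plus strand: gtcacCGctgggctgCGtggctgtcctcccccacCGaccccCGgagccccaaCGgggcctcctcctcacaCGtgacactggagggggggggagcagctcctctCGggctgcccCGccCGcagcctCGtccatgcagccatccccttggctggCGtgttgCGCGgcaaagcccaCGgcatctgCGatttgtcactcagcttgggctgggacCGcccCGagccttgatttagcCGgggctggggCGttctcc
Grb10, chr11:12037429-12037670, minus strand: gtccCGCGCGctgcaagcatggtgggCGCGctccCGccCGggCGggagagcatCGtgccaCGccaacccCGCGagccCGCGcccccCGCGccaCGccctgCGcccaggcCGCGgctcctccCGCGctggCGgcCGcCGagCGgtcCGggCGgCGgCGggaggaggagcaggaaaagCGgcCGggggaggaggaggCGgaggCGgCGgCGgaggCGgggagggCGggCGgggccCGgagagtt

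The starts of Kcnq1ot1, Snrpn and Airn had 5, 3 and 2 CG pairs in the 250 bases before them, near or under the median of 6 over 31365 such windows. The start of Igf2r had 27, more than 91.2% of the windows. Plagl1 had 19 and the upstream start of Grb10 had 40, more than 79.8% and 98.7% of the windows. The letters TGCCGC, which ZFP57 binds when methylated to keep imprints, were searched on both strands. They lay in 2 of the 17 member windows, before Plagl1 and before the first base of Meg3, and in 8.69% of all windows. A match is a run of letters and not a bound site. Bases after the starts were neither counted nor searched, though the stretches active in all strains at Kcnq1ot1, Snrpn and Airn lay mostly there.

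Kcnq1ot1 is the paternally expressed RNA that silences its neighbours from inside Kcnq1, on the opposite strand (chr7:143213111-143296547). Its active share was 9.60% at the lowest, 14.3% at the median and 16.1% at the highest, which lay above the autosomal share in 9 of 9 strains. The difference was 5.92 ± 1.72 percentage points (adjusted p = 0.0056, exact sign-flip permutation test). The start lay in a stretch of 2400 bp that was active in all strains (chr7:143294601-143297000), with 74.1% of its bins in state 3, a state that also filled the start bin in every strain. On the upstream side the stretch was followed within about 1 kb by state 14 in 8 of 9 strains, and in CAST/EiJ it went on for longer. States 6 and 8 covered 14.1% and 3.22% of the whole window. All marks in this window lie inside Kcnq1 as well, and the 2 genes cannot be told apart here.

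Igf2r, the maternally expressed receptor that removes IGF2 from the cell surface, had the same absence of state 13 and of mixed states (chr17:12682406-12769706). Its active share ran from 9.21% in NOD/ShiLtJ through a median of 18.8% to 27% in CAST/EiJ. It was 12.0 ± 5.02 points above the autosomes, higher in 9 of 9 strains (adjusted p = 0.0056, exact sign-flip permutation test). The start bin was in state 3 in all strains, within 2000 bp that were active in all strains (chr17:12768401-12770400). A further active stretch was held by all strains inside the gene (chr17:12741401-12742200), with state 3 in 58.3% of its bins, and it begins beside the start of Airn at 12741311. Airn is expressed from the paternal chromosome and silences Igf2r there. Of the 11 bins within 1 kb of the start of Airn, between 5 (PWK/PhJ) and 11 (129S1/SvImJ) were active in each strain and the others were in states 6 and 8. The start bin of Airn itself was active (state 1) in 2 strains and in state 8 in 7, and neither promoter had a mixed bin.

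Snrpn codes for a splicing protein and is expressed from the paternal chromosome. The table's Snrpn runs over 467683 bp (chr7:59982495-60450177), because it includes far upstream starts, and Snhg14 and Snurf overlap it. At the start shared with Snurf (60005199) the bin was active in 8 of 9 strains, in state 3 in 7 and in state 1 in WSB/EiJ, while NZO/HlLtJ had state 9. All strains were active over 1000 bp just inside the gene (chr7:60004001-60005000), 84.4% of these bins being in state 3. Of the 11 bins within 1 kb of the start, between 5 (NZO/HlLtJ) and 9 (PWK/PhJ) were active. States 8 and 9 together filled 2 to 6 of these bins in 8 strains and none in PWK/PhJ, and no strain had a mixed bin or state 13 there. The other 3 starts, at 60047978, 60140225 and 60450177, were in state 14 in 8, 9 and 8 strains.

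The mixed states of Snrpn lay far from the main start. Mixed bins made up 0.549% at the lowest, 1.01% at the median and 1.56% at the highest of its window, above the autosomal share in 9 of 9 strains (adjusted p = 0.0124, exact sign-flip permutation test). All strains shared 1600 bp of mixed states (chr7:60390401-60392000), mostly state 12 in 129S1/SvImJ, NOD/ShiLtJ and WSB/EiJ, and mostly state 5 in C57BL/6J, DBA/2J, NZO/HlLtJ and PWK/PhJ. A/J had 4 bins of each, and CAST/EiJ had 4 in state 12 and 3 in state 5. State 14 covered most of the window, 55.0% at the lowest and 83.5% at the highest. State 13 covered 14.4% at the lowest in DBA/2J, 25.5% at the median and 42.0% at the highest in CAST/EiJ. Its longest stretch held by all strains was 11400 bp (chr7:60400201-60411600). The share of state 13 was 15.4 ± 7.65 points above the autosomes (adjusted p = 0.0084, exact sign-flip permutation test), and the active share differed by -7.51 ± 0.792 points (adjusted p = 0.0056, the same test).

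Peg3, a paternally expressed zinc finger gene linked to maternal care and fetal growth, shares its start with Usp29, which runs the other way (chr7:6703892-6730462). Its active share was 9.15% at the lowest, 9.76% at the median and 11% at the highest, the narrowest spread among the members with more than 1% active bins (SD 0.610). It was 2.01 ± 0.809 points above the autosomes (adjusted p = 0.0056, exact sign-flip permutation test). The call was lost when the reference was all gene windows or when 10 kb was added to the span. All strains were active over 3000 bp inside the gene from the start (chr7:6727201-6730200), with 67.4% of bins in state 3. The start bin itself was in state 8 or 9 in 8 strains and in state 1 in 129S1/SvImJ. Of the 11 bins within 1 kb of the start, 7 strains had mixed bins on the Usp29 side, from 1 in 129S1/SvImJ and WSB/EiJ to 5 in A/J. CAST/EiJ and PWK/PhJ had none. Over the whole window the mixed share was 1.76% ± 1.44, above the autosomal share in 7 strains (adjusted p = 0.0574, exact sign-flip permutation test). Peg3 was called higher in mixed states in 3 of the alternative settings: a one-sided test, all genes tested and 10 kb added.

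**Figure D2:**
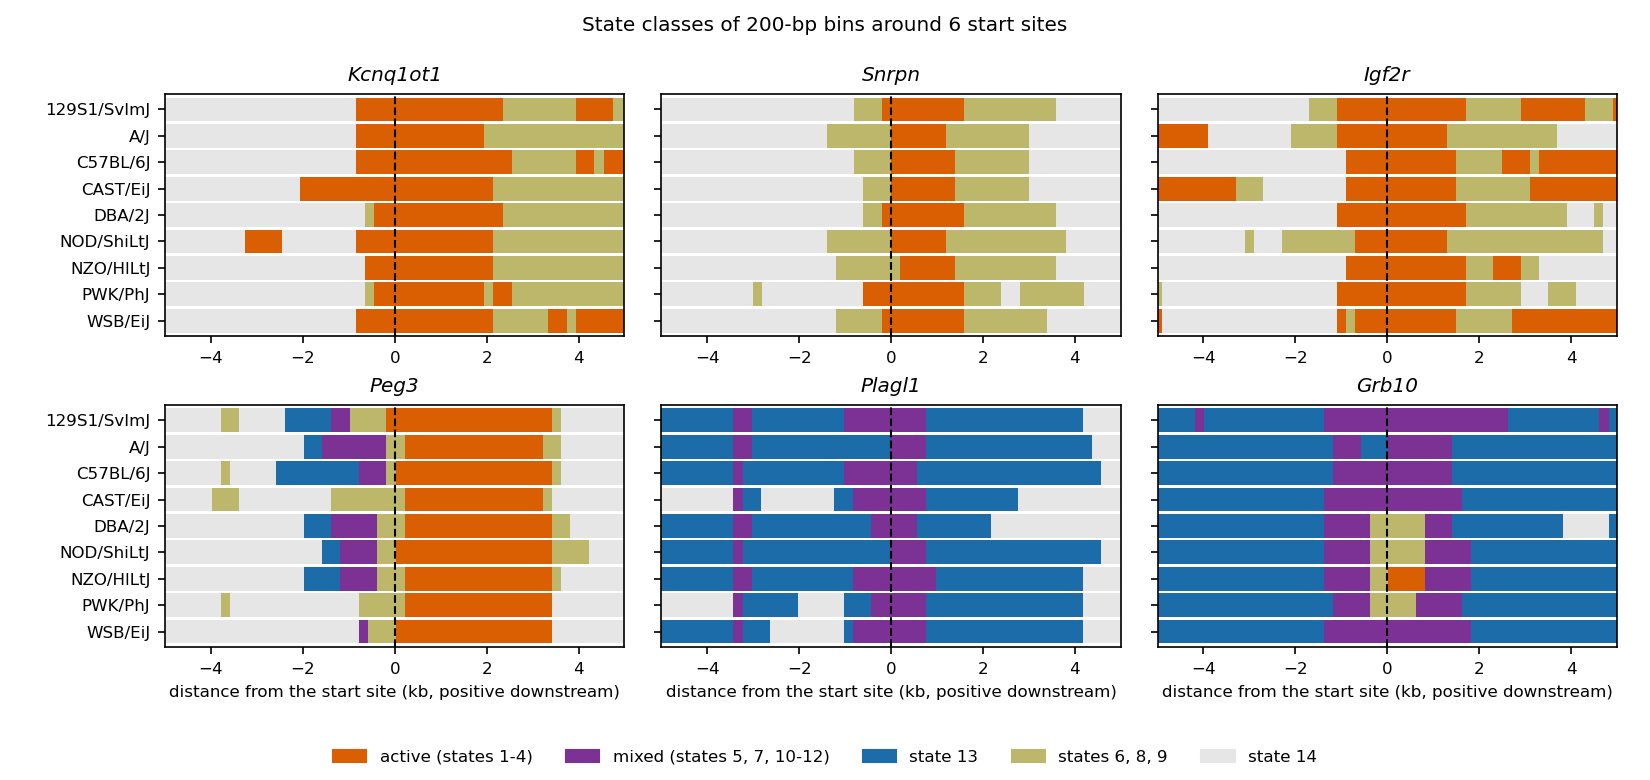
State class of each 200-bp bin from 5 kb before to 5 kb after 6 start sites (x axis, kb, the dashed line is the start), 1 row per strain. Kcnq1ot1, Snrpn, Igf2r and Peg3 have an active stretch held by all strains, Plagl1 has a mixed stretch between state 13, and the upstream start of Grb10 changes class between strains.

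Plagl1, a paternally expressed zinc finger gene that slows cell division, was mixed at its start in 9 of 9 strains (chr10:13090832-13131694). The start bin was in state 12 in 7 strains, in state 10 in A/J and in state 11 in DBA/2J. Of the 11 bins within 1 kb of the start between 4 and 9 were mixed in each strain, all the others were in state 13 and none was active. The mixed stretch common to all strains was 600 bp long (chr10:13090801-13091400). Over the whole gene the mixed share was 1.70% at the lowest, 3.40% at the median and 3.83% at the highest, 2.55 ± 0.853 points above the autosomes (adjusted p = 0.0124, exact sign-flip permutation test). The share of state 13 was 6.38% in CAST/EiJ, 18.3% at the median and 31.1% in A/J, above the autosomal share in 7 strains (adjusted p = 0.0415, exact sign-flip permutation test). The state 13 call of Plagl1 was lost when 129S1/SvImJ, A/J, C57BL/6J, NOD/ShiLtJ, NZO/HlLtJ or WSB/EiJ was left out alone, and was made without CAST/EiJ, DBA/2J or PWK/PhJ. It was also lost when no flank was added.

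Grb10, an adaptor that restrains insulin and growth factor signalling and is expressed from the maternal chromosome in most tissues, was the only member with at least 10% of its bins active and at least 10% in state 13 or mixed in every strain (chr11:11930499-12037428). This held for 96 of the 47042 autosomal genes, or 0.204%, and for no member when 20% was asked for. Its active share was 24.2% at the lowest, 32.0% at the median and 36.9% at the highest, 23.8 ± 3.64 points above the autosomes (adjusted p = 0.0056). Its share of state 13 was 12.0% at the lowest, 15.4% at the median and 23.9% at the highest, 6.34 ± 4.17 points above (adjusted p = 0.0084), and its mixed share was 3.47 ± 2.08 points above (adjusted p = 0.0124). All 3 were higher in 9 of 9 strains by the exact sign-flip permutation test.

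The classes of Grb10 lay in different parts of the gene. A split 50 kb downstream of the upstream start, chosen after the map had been seen, left 0.292% ± 0.524 of bins active in the part with the starts and 59.7% ± 7.32 in the far part. State 13 covered 35.9% ± 8.27 of the start part and 0.963% ± 2.54 of the far part, and mixed states 8.10% ± 4.46 and 0%. State 14 made up 53.6% ± 5.94 of the start part and 34.9% ± 8.01 of the far part. The strains' values did not overlap between the parts for active states, state 13 or mixed states. As the split was placed with the map in view, this describes the map and is not a test. No other gene was split in this way. The non-coding gene LOC102631979 lies inside the far part. The longest stretches active in all strains were 7600 bp at the far end of the window (chr11:11927401-11935000) and 7200 bp over that non-coding gene (chr11:11959801-11967000).

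**Figure D3:**
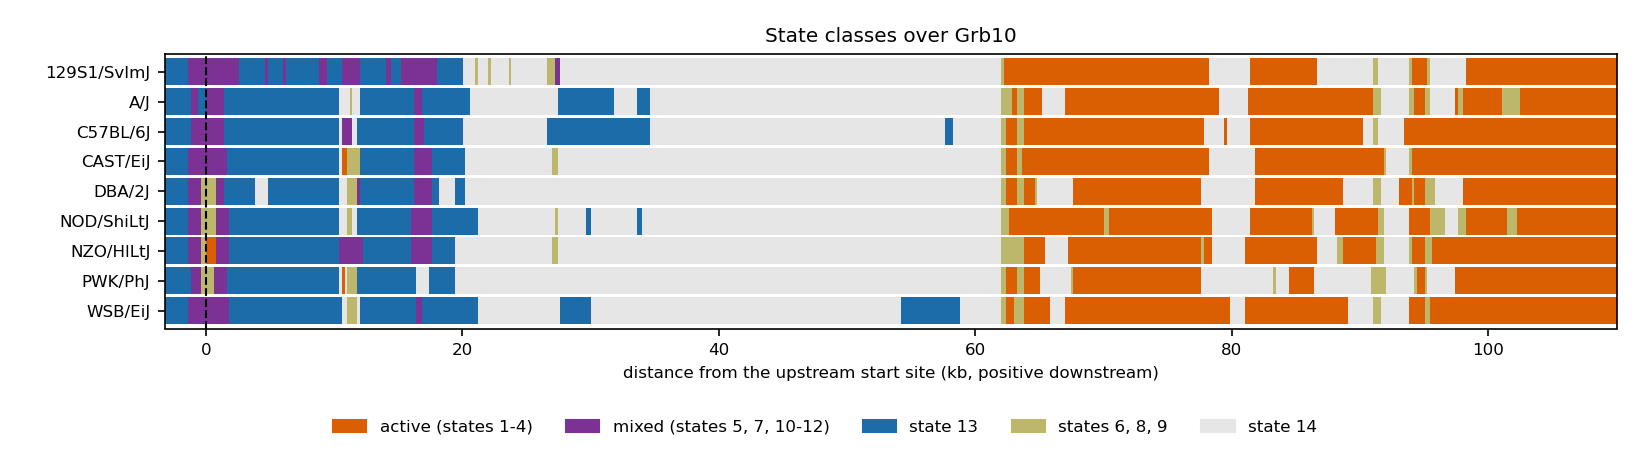
State class of each 200-bp bin over Grb10 with 3 kb on both sides, by distance from the upstream start (x axis, kb, dashed line at the start), 1 row per strain. In all 9 strains state 13 and mixed states lie mostly in the part around the starts and active states in the far part, with unmarked bins in both.

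The upstream start of Grb10 (12037420) lay in a place where the strains differed in kind. Within 7 bins (chr11:12036601-12038000), NZO/HlLtJ had 4 bins in state 3, an active state. DBA/2J, NOD/ShiLtJ and PWK/PhJ had 5 bins in state 9. The bins of 129S1/SvImJ, C57BL/6J, CAST/EiJ and WSB/EiJ were all mixed, with state 5 leading in the first, state 7 in the next pair and state 11 in the last. A/J had 4 mixed bins and 3 in state 13. To both sides of this core, 600 bp were mixed in all strains (chr11:12036001-12036600 and chr11:12038001-12038600), with 81.5% and 70.4% of bins in state 12. On the outer side all strains then had 1800 bp of state 13 (chr11:12038801-12040600). The inner start, at 12027971, was in state 13 in 9 of 9 strains.

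Igf2, the fetal growth factor expressed from the paternal chromosome, and H19, the RNA expressed from the maternal chromosome, share enhancers and a control element that lies beside H19. Igf2 (chr7:142650768-142666816) had 71.4% at the lowest, 79.5% at the median and 89.3% at the highest of its bins in state 13, 68.5 ± 6.73 points above the autosomes (adjusted p = 0.0084, exact sign-flip permutation test). Its mixed share, all of it state 10, was 8.04% at the lowest, 13.4% at the median and 17.9% at the highest, 12.6 ± 3.88 points above (adjusted p = 0.0124, exact sign-flip permutation test). Both classes were above the autosomes in 9 of 9 strains. The starts at 142657496 and 142666816 were in state 13 in every strain. The start at 142661271 was in state 10 in 8 strains and in state 13 in DBA/2J, and the start at 142658804 was in state 10 in 6 strains. At least 5 strains were mixed over 2800 bp around the former of these 2 (chr7:142660201-142663000).

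H19 (chr7:142575530-142578146) had 36.4% at the lowest, 54.5% at the median and 84.1% at the highest of its bins in state 13, 48.3 ± 16.5 points above the autosomes in 9 of 9 strains (adjusted p = 0.0084, exact sign-flip permutation test). Its mixed share was 0% in DBA/2J, 15.9% at the median and 20.5% in CAST/EiJ, above the autosomes in 8 strains (adjusted p = 0.0195, exact sign-flip permutation test). These mixed bins lay largely outside the gene on the side of Igf2, and without the added 3 kb H19 was not called. Over 5 bins there (chr7:142580001-142581000) the mixed states 10 and 12 filled 5 bins in 6 strains, 4 in C57BL/6J and 3 in PWK/PhJ, the rest being state 13. DBA/2J had 3 bins in state 6 and 2 in state 8 and no mixed bin. The end of H19 that faces Igf2 was in state 13 in all strains.

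The stretch between the windows of H19 and Igf2 (chr7:142581201-142647600, 66400 bp) carried on the same chromatin. It had 63.3% at the lowest, 81.3% at the median and 91.3% at the highest of its bins in state 13, with 3.98% ± 1.56 mixed. A block of 16200 bp next to Igf2 was in state 13 in all strains (chr7:142631401-142647600). Beside it, 8 bins (chr7:142629601-142631200) interrupted state 13 in all strains. State 6 filled between 3 and 8 of these bins, and C57BL/6J had 5 bins in active state 2, the only strain with an active bin there.

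Dlk1, a paternally expressed membrane protein of the Notch ligand family that restrains fat cell formation, was in state 13 at its start in 9 of 9 strains (chr12:109452485-109463336). Its share of state 13 was 34.1% in NOD/ShiLtJ, 50.6% at the median and 74.1% in WSB/EiJ, 41.9 ± 14.7 points above the autosomes in 9 of 9 strains (adjusted p = 0.0084, exact sign-flip permutation test). Its mixed share was 0% in A/J, 1.18% at the median and 7.06% in CAST/EiJ, above the autosomes in 8 strains (adjusted p = 0.0195, exact sign-flip permutation test). In 4 strains that share is 1 bin, and the call was lost when single-bin segments were taken over by their neighbours and when no flank was added.

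Meg3, the maternally expressed RNA at the other end of the same cluster, had 93.0% at the lowest, 95.1% at the median and 97.8% at the highest of its bins in state 14 (chr12:109540996-109571729). Its active share was 0.781% ± 1.24, a difference of -7.16 ± 1.27 points from the autosomes (adjusted p = 0.0056, exact sign-flip permutation test). Its share of state 13 was 1.20% ± 1.26, a difference of -9.85 ± 1.65 points (adjusted p = 0.0084, exact sign-flip permutation test). Both were below the autosomes in 9 of 9 strains. The first start was in state 14 in 6 strains, in state 13 in NOD/ShiLtJ and WSB/EiJ and in state 9 in CAST/EiJ. The second was in state 14 in all. Active chromatin stood upstream of the gene instead. Between the windows of Dlk1 and Meg3 (chr12:109466401-109537800) 17.6% at the lowest, 30.5% at the median and 37.0% at the highest of bins were active, and 0.0311% ± 0.0934 were mixed. The nearest active stretch held by all strains was 3800 bp long and ended 7396 bp before Meg3 (chr12:109529801-109533600), in states 1, 2 and 4 and not in state 3. These stretches between genes were looked at after the maps had been seen, and no test was run on them.

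**Figure D4:**
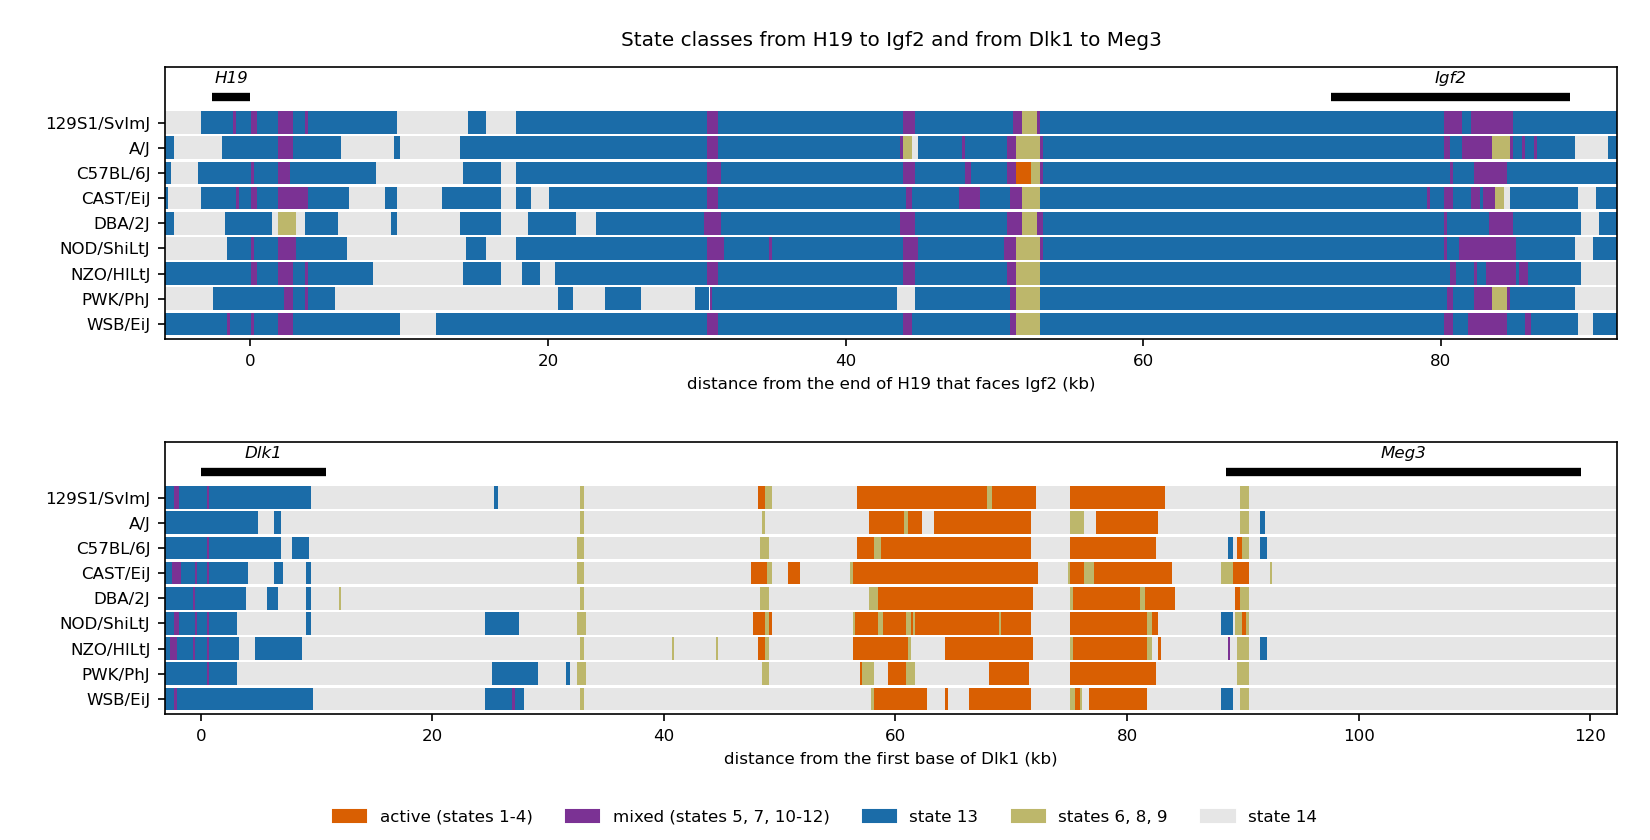
State class of each 200-bp bin from H19 to Igf2 (upper panel) and from Dlk1 to Meg3 (lower panel), 1 row per strain, with the genes as black bars and distance on the x axis in kb. State 13 covers 63.3% to 91.3% of the bins between the windows of H19 and Igf2, while between those of Dlk1 and Meg3 active states cover 17.6% to 37.0%.

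Switches between classes across strains were few. A bin that was active in at least 1 strain and in state 13 or mixed in another occurred 13 times in the 4675 member bins, or 0.278% (exact Clopper-Pearson 95% interval 0.148% to 0.475%, which treats neighbouring bins as independent), against 0.476% of the 6767266 bins of all gene windows. Of the 13, 7 lay in Snrpn and 6 in Grb10. In Grb10 they were 4 bins of the upstream start, active in NZO/HlLtJ alone, and 2 near the inner start, active in CAST/EiJ and 1 of them also in PWK/PhJ. In Snrpn 6 lay together far upstream of the main start (chr7:60243601-60244800), where no gene other than Snrpn and Snhg14 is placed. In the 12 bins around them (chr7:60243001-60245400) CAST/EiJ had 6 active bins, NZO/HlLtJ 4 and A/J 3, with 6, 5 and 9 mixed bins beside them. C57BL/6J had 12 mixed bins, 129S1/SvImJ 11, NOD/ShiLtJ 10 and WSB/EiJ 5, without an active bin. DBA/2J and PWK/PhJ had all 12 bins in state 14.

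The difference between strains, as the share of bins in unlike states averaged over the 36 pairs of strains, had a median of 18.3% over the 10 genes and 18.4% over all autosomal genes. H19 differed most, at 32.4%, more than 81.7% of genes. Dlk1 and Grb10 followed at 23.9% and 23.8%, Igf2r at 21.2%, Snrpn at 20.4%, Igf2 at 16.3%, Plagl1 at 16.0% and Kcnq1ot1 at 15.4%. Peg3 at 8.20% and Meg3 at 4.92% differed least, and both windows were mostly state 14. Among bins outside state 14 in at least 1 strain, all 9 strains had the same state at 61.6% in Igf2, 35.4% in Dlk1, 27.9% in Grb10 and 22.7% in H19, against 12.0% over the autosomes. The share was 17.6% in Peg3, 14.6% in Kcnq1ot1, 11.7% in Snrpn, 8.51% in Plagl1, 7.66% in Igf2r and 0% in Meg3, where 16 bins were marked in any strain. States shared by 8 strains and not by the ninth were most frequent in CAST/EiJ, with 212 of the 4675 member bins (4.53%, against 2.35% of autosomal bins). Of the 212, 160 lay in Snrpn and 35 in Igf2r, and without Snrpn the value was 52 of 2306 bins, or 2.25%. PWK/PhJ, which had the highest autosomal value, 4.56%, had 1.33% in the members.

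**Figure D5:**
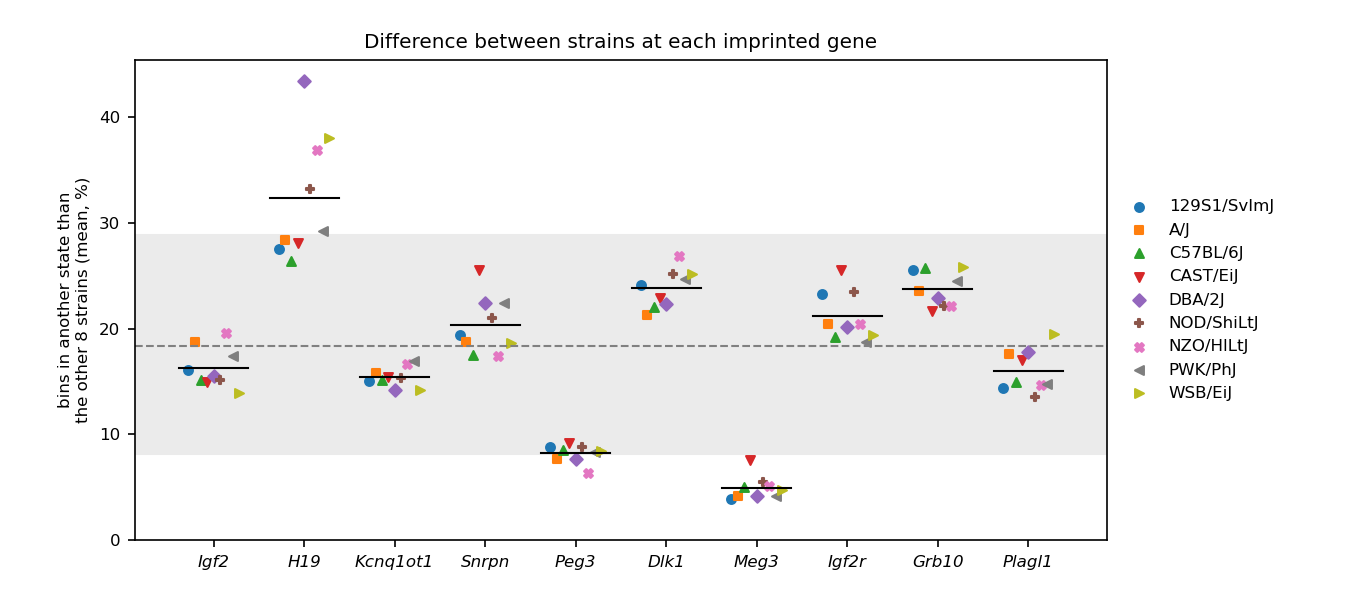
Share of bins in which a strain's state differs from that of each other strain, averaged over the other 8 (y axis, percent), by gene, 1 symbol per strain, with the mean of all pairs as a black line. The dashed line and band are the median and quartiles over all autosomal genes. H19 lies above the band, with DBA/2J highest, and Meg3 below it.

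Other imprinted genes were counted by the same tests. The list of 46 genes holds several that overlap the members, such as Snurf, Airn, Kcnq1 and Usp29, and Snhg14 overlaps Snrpn. In mixed states 15 of 46 were called higher, 4 lower and 19 had no mixed bin, where 8.65% of all genes were called higher. In state 13, 14 of 46 were called higher and 11 lower, against 17.1% of all genes called higher. In active states 16 of 46 were higher and 12 lower, against 32% of all genes called higher, a share near that of the list. Of the 46, 27 were tested in mixed states, 29 in state 13 and 32 in active states. Over all tested genes 36.3%, 33.3% and 55.8% were called higher in these classes. The 8 genes with the largest mean mixed shares were picked for that share and are given as a description, without a test. They were led by Mkrn3 at 22.5% ± 10.1, a ubiquitin ligase gene that restrains puberty, Peg12 at 15.4% ± 5.42, Mest at 13.5% ± 4.22, Klf14 at 12.1% ± 3.35 and Ascl2 at 11.4% ± 8.01, a regulator of the placenta. Nespas at 6.97% ± 3.08, the RNA antisense to Nesp, Magel2 at 4.24% ± 3.40 and Peg10 at 4.12% ± 2.42 followed.

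The gene with the most similar make-up of states was looked up for each member among genes of comparable window length. Distance was the difference of mean shares in percentage points, summed over those of the 14 states with the larger share in the member. Tfap2c, a developmental transcription factor, came nearest to Igf2, 2.96 points away, and Tcf15, another one, came nearest to H19, at 4.20. Bend6 was nearest to Plagl1 (1.49 points), BC055402 to Dlk1 (0.610), Cfap61 to Snrpn (1.42) and Gm3489 to Meg3 (0.818). Ago2 was nearest to Kcnq1ot1 (3.11), Ralgps2 to Igf2r (3.11) and Gm42221 to Peg3 (5.63). Grb10 had no close match. Its nearest gene, Spsb4, was 13.9 points away, with 26.3% active bins, 10.7% in state 13 and 2.80% mixed.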

How the data were processed

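The authors deposited, per the labels and the file headers, 1 segmentation per strain, in which column 4 holds a state number, which is a category and not a count, signal or score. Build mm10 is named in the submitters' processing notes, as are FastQC 0.11.5 and MACS 1.4.2. The segmentation tool and its settings are not given in the sources used here. Whether states were learned on all strains together is not stated. A further file that joins the 9 segmentations end to end was not used. No per-sample column was left unmapped.

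Segments were laid on 200-bp bins of the autosomes. Genes and start sites came from RefSeq tables of GRCm38.p6, the assembly behind mm10. Bins touched by a gene's span with 3 kb added were taken. State classes were read from gene panels and chromosome X, outside the members. Tests were sign-flip permutation tests (exact, two-sided, 9 strains), adjusted by Benjamini-Hochberg over all autosomal genes with the class, with a threshold of 0.05. They say nothing of the spread between mice. Related strains are not independent samples.

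The members, gene lists and tests were chosen with earlier results of these data known. The genes named are the 10 members, the 8 of 46 other imprinted genes with the highest mean mixed share, and the nearest gene of each member. Stretches between genes, the split of Grb10 and the short elements were chosen after their states had been seen. The code was tested on simulated data. Python 3.11.15, numpy 2.4.6, scipy 1.17.1 and matplotlib 3.10.9 were used.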

Additional observations from a re-analysis of the deposited data

Results flagged for a closer look

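A strain stood apart from the other 8 in 4 of 32 sets of strain values. A rate of about 1 of 20 sets by chance would give 1.6 of 32, but it is not known to hold for shares that are often 0%. There, 1 bin in 1 strain already makes the widest gap possible. Sets of the same gene are also not independent, so the flagged number cannot be weighed against 1.6. Meg3 had a mixed share of 0.541% in NZO/HlLtJ, which is 1 bin, and 0% in the other strains. The active share of Meg3 was 3.78% in CAST/EiJ and 1.08% in the next strain, and its difference from the other 8 strains was 7.57% in CAST/EiJ and 5.47% in the next. Grb10 had a mixed share of 8.83% in 129S1/SvImJ and 4.77% in the next strain.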

How the results depend on the processing

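The 6 results were recomputed under 88 alternatives. In 81 a count stayed within 1.5 times its main value, the switching share stayed within its interval, or the median moved by less than the spread between strains, but single genes could still lose or gain a call. Over all alternatives 4 to 7 members were higher in mixed states (4 with no flank, without Dlk1 and H19), 5 to 6 in state 13 and 3 to 4 in active states. With a strain left out, 6 members were higher in mixed states in every case, 5 to 6 in state 13, 4 in active states, and 1 (Grb10) had both classes. The switching share then ran from 0.193% to 0.278% and the median strain difference from 17.8% to 18.9%. With a minimum of 20%, 0 members had both classes in all strains. The switching share was 1.45% with active states widened to every state outside 13, 14 and the mixed ones (1.08% over all gene windows), 0.128% with at least 2 strains on each side (0.126%) and 0.0214% with mixed states left out of the repressive side (0.282%). The median strain difference was 11.4% when a state within 1 bin counted as the same (10.4% over all genes). It was 36.3% over marked bins alone (34.9%) and 17.2% with no flank (16.7%). In each of these the members lay above all genes, where the main values were 18.3% and 18.4%. The direction relative to all gene windows turned in the first 2 of these switching values, so the members were not shown to switch less or more often than other genes. H19 and Kcnq1ot1 are non-coding and leave the counts when protein-coding genes alone are tested. No paired analysis was possible because each segmentation pools the mice of a strain.

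With 9 strains the smallest p passes the adjustment only where a large share of all genes changes, as here. The depth behind each state, the marks of each state and the mice of a strain are not given as values, which limits what a single bin can show.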
